A study of Mus musculus with 22 samples.

Results

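The 32 genes described here encode the enzymes that make cholesterol and the proteins that sense, carry, export and modify it. They were taken by symbol from the 37786 genes counted in whole anterior cingulate cortex (ACC), and the rule used symbols only. By role they comprise 7 enzymes of the mevalonate stage, 11 enzymes from squalene to cholesterol, 5 proteins that control the sterol-responsive transcription factors, 3 sterol carriers, and 6 proteins of efflux and turnover.

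RNA was sequenced from 12 control mice (ctrl, no light) and 10 stimulated mice (stim, 9 optogenetic stimulations of the pathway from the basolateral amygdala, BLA, to the ACC), to ask which transcripts differ after repeated activation. All were adult male wildtype C57BL/6J mice. Mice of both groups carried the same light-gated cation channel, channelrhodopsin fused to EYFP under the CaMKIIa promoter, from an AAV injected into the BLA on both sides, and both had an optic fibre in 1 hemisphere of the ACC. The promoter directs the channel mainly to excitatory neurons, so light in the ACC acts on axons whose cell bodies lie outside the tissue sequenced. The whole ACC of both hemispheres was dissected, and in such bulk tissue fewer cells of a type and less RNA per cell cannot be told apart.

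The libraries held 23090483 to 43668462 counts. Library numbers in the labels form an earlier run (1 to 11, with 6 control and 4 stimulated mice) and a later run (12 to 23, with 6 of each). The study worked with separate batches of mice, but the labels name no batch, so these runs are called only that. Mitochondrial genes took a median of 2.22% of counts in the earlier run and 1.12% in the later one. Of all 17524 genes tested, 68.1% differed between the runs at an adjusted p under 0.05, so the run was a term of the edgeR quasi-likelihood fit and values are given by run. Neuronal marker genes summed to 8661 to 14940 CPM (counts scaled to TMM-adjusted library sizes) over the 22 mice, and no marker gene looked at was without a count in every mouse. Control replicates 9 and 11 stood apart, with 12 oligodendrocyte markers that summed to 20020 and 14730 CPM against a control median of 5206 CPM. Results that bear on these animals are given with and without them.

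Cells build cholesterol from acetyl-CoA, first through mevalonate to farnesyl pyrophosphate, and then through squalene and a series of sterols. When sterol in the endoplasmic reticulum is low, SCAP escorts the SREBP transcription factors to the Golgi, where they are cleaved and released to switch on the enzyme genes, and INSIG proteins hold them back when sterol is plentiful. When sterol is high, LXR receptors, bound by oxysterols, switch on the ABC exporters. The brain makes its own cholesterol, since lipoproteins do not cross the blood-brain barrier, and most of it lies in myelin. Neurons clear it by hydroxylation with CYP46A1, whose product leaves through the blood-brain barrier.

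Since these genes are known for shared control at their promoters, RefSeq promoters (GRCm38.p6, 250 bases before to 50 after the start) were matched for 26 of the 32 genes. Those of Fdps, Fdft1, Sqle, Npc1, Stard4 and Abcg1 were not matched. Both strands were searched for CCAAT, the box bound by NF-Y, a usual partner of SREBP, for CACGTG, an E-box, and for TCACNCCAC, the core of a sterol regulatory element. No motif contains another. CCAAT lay in the promoters of 21 of the 26 genes (80.8%), against 41.1% of all 27025 genes with a promoter. CACGTG lay in 6 (23.1%, against 8.09%), and TCACNCCAC in 1, Hmgcs1 (3.85%, against 1.44%). A gene was counted if any of its promoters held the motif. By promoter, CCAAT lay in 22 of 35, against 37.4% of all 32851. CACGTG lay in 7 of the 35 (against 7.15%) and TCACNCCAC in 1 (against 1.24%). The 27025 genes were not limited to those tested in the ACC. Shown are Hmgcs1, which holds the only sterol element core found, then Mvd and Nsdhl, synthesis genes with a higher fitted level in stimulated mice, and Soat1, with a lower one, none of which passed adjustment. Each is written 5′ to 3′ on the strand of the gene, with capitals for CCAAT and its complement, which reads ATTGG, and for the sterol element core.

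Hmgcs1, chr13:119690101-119690400, plus strand: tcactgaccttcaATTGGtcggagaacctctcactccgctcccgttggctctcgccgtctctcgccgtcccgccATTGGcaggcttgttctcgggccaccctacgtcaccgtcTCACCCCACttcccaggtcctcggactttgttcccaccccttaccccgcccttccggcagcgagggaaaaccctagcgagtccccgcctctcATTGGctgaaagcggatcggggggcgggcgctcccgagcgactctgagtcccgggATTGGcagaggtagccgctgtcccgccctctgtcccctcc
Mvd, chr8:122443373-122443672, minus strand: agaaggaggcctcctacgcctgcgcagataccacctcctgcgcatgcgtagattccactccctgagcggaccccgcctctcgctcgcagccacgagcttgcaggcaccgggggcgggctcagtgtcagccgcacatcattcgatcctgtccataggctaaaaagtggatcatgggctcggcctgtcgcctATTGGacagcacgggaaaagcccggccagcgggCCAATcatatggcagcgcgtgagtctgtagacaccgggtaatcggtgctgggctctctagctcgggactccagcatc
Nsdhl, chrX:72918271-72918570, plus strand: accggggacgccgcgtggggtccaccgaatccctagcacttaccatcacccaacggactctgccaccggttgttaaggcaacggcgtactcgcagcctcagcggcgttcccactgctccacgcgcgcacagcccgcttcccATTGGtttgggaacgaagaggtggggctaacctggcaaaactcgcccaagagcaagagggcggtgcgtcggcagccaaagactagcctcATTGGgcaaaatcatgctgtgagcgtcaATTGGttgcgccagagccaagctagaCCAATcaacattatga
Soat1, chr1:156474279-156474578, minus strand: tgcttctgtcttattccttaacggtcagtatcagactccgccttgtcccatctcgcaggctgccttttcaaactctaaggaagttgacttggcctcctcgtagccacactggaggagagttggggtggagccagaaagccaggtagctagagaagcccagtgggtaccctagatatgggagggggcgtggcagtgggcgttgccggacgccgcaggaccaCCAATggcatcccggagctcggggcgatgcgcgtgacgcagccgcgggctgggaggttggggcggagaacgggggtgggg

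The 4 promoters differ in how many copies they hold. Hmgcs1 and Nsdhl have 4 CCAAT boxes each, Mvd has 2 and Soat1 has 1. The single sterol element core of Hmgcs1 begins 137 bases before the start. These are matches of letters, and binding was not measured.

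All 32 genes passed the count minimum, and the lowest count of any of them in any mouse was 54. Levels per exonic length, which are CPM divided by kilobases of exon (FPKM), ranged 144-fold between genes in control mice. Cyp46a1, the neuronal cholesterol 24-hydroxylase, was the most abundant at 93.8 ± 10.0 FPKM (SD, n = 12). Hmgcs1, which makes the HMG-CoA that enters the mevalonate route, followed at 57.7 ± 12.2, and Srebf2, the SREBP gene that mainly drives cholesterol synthesis, stood at 56.4 ± 20.5 FPKM. Those last levels overlap within their SD. Of the synthesis enzymes, Pmvk at 30.6 ± 8.55, Msmo1 at 29.8 ± 5.61, Cyp51 at 28.9 ± 5.31 and Fdft1 at 27.2 ± 5.51 FPKM came next and do not differ beyond their spread. The lowest levels were those of Nr1h3 (LXR alpha, 1.97 ± 0.413), Fdps (1.34 ± 0.339) and Idi1 (0.650 ± 0.144). Only uniquely aligned reads were counted, which can lower genes with near-identical copies elsewhere, such as Fdps and Idi1, whose levels are uncertain. Fdps also shares exonic bases with another gene model on its strand, where reads cannot be assigned to one gene.

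**Figure D1:**
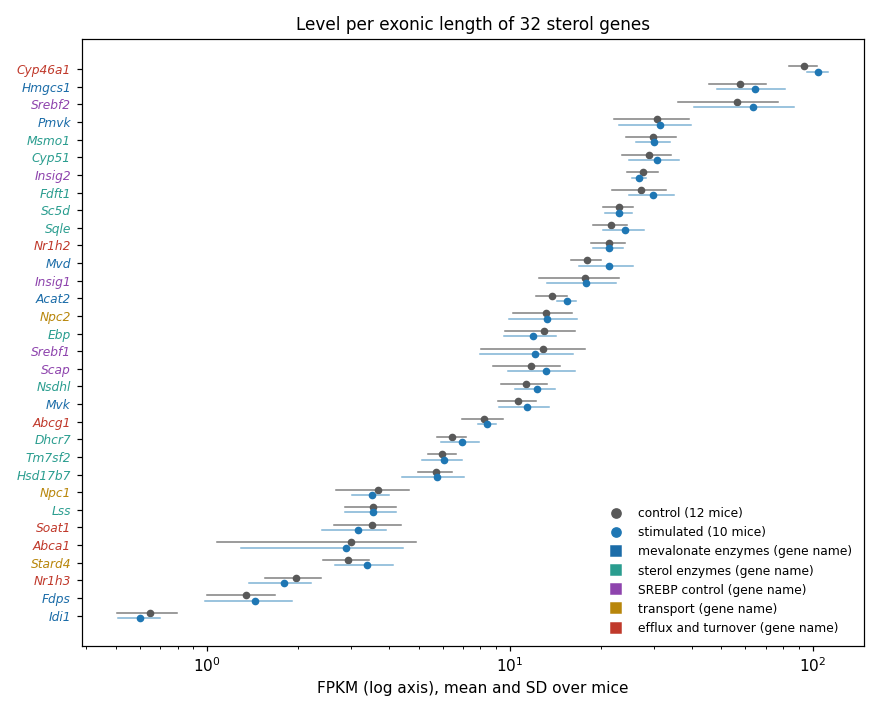
Mean FPKM (log axis) with SD over the 12 control mice (grey) and the 10 stimulated mice (blue) for each of the 32 genes, ordered by control level, with gene names coloured by role. Cyp46a1 lies at the top with 93.8 FPKM in controls and Idi1 at the bottom with 0.650, and the bars of the groups overlap for every gene.

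Most of the 32 genes varied less between mice of one group and run than the median gene tested. The residual SD of log2 CPM had a median of 0.16 over the 32 genes and 0.25 over all genes tested, and 30 of the 32 lay under the latter. All genes tested include those near the count minimum, and the comparison was not matched for level.

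In stimulated mice 20 of the 32 genes had a higher fitted level (52.6% of all genes tested) and 12 a lower one, none by an amount that passed correction over all genes. At an adjusted p under 0.05 the edgeR fit called 0 of the 32 genes and 0 of all 17524 (0%), and the smallest adjusted p among the 32 was 0.305. Before adjustment 9 of the 32 (28.1%) and 2015 of all genes (11.5%) had a p under 0.05. Of the 32, 7 (21.9%) were higher, against 6.05% of all genes tested, and 2 (6.25%) were lower, against 5.45%. The lower share is near that of all genes. All but 1 of the 7 were synthesis enzymes. The median log2 fold change was 0.08 over the 18 synthesis enzymes, of which 13 were above 0, −0.01 over the 14 other genes, of which 7 were above 0, and 0.01 over all genes.

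The choice of fit changed these counts. With group as the only term, 2 of the 32 genes were higher at an unadjusted p under 0.05, Mvd and Acat2, where 0.999% of all genes were, and 0 were lower, where 2.61% of all genes were. The DESeq2 Wald test with run called 33 genes (0.188%) at an adjusted p under 0.05 but 0 of the 32, and put 9 higher (6.6% of all genes) and 2 lower (5.86%) before adjustment. The 95% intervals of all 32 log2 fold changes lay between −0.42 and 0.41, so a difference of more than 0.5 on the log2 scale lay outside the interval of each gene.

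**Figure D2:**
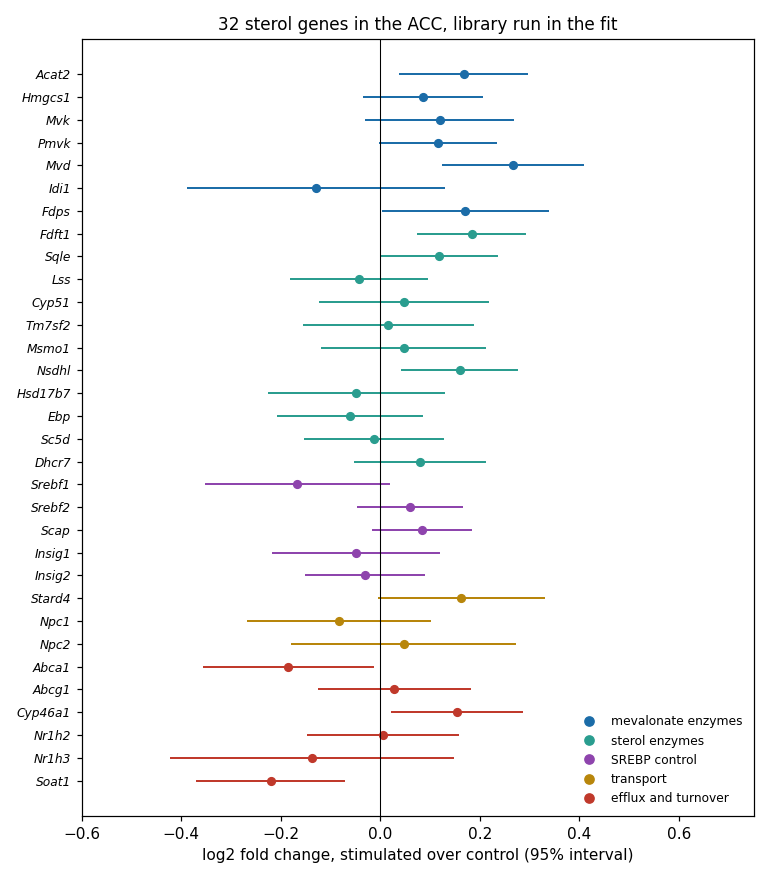
Log2 fold change of stimulated over control mice with its 95% interval (edgeR, run in the fit, 12 control and 10 stimulated mice) for the 32 genes in the order of their roles. Intervals exclude 0 for 9 genes, all reach less than 0.5 from 0, and Mvd has the largest value at 0.27 and Soat1 the lowest at −0.22.

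Among the mevalonate enzymes, 6 of 7 had a higher fitted level in stimulated mice, and 3 of these, Mvd, Acat2 and Fdps, had an unadjusted p under 0.05 (52.6% and 6.05% of all genes tested). The median log2 fold change of the 7 was 0.12.

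Mvd (chr8:122433601-122443422, minus strand) encodes mevalonate diphosphate decarboxylase, which makes isopentenyl pyrophosphate. In the earlier run it stood at 32.3 to 39.4 CPM (median 36.4) in control mice and at 43.5, 54.7, 46.4 and 41.8 CPM in the stimulated mice, so the groups did not overlap. Later control mice spanned 26.8 to 32.2 CPM (median 30.8) and stimulated mice 29.5 to 41.0 (median 34.2), and the groups overlapped. Mvd was above the control median of its run in 8 of 10 stimulated mice. Its log2 fold change was 0.27 ± 0.07 (SE), 1.20-fold, with an unadjusted p of 0.00061 and an adjusted p of 0.305 (edgeR). By run it was 0.37 ± 0.09 and 0.16 ± 0.09.

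Acat2 (chr17:12942890-12960747, minus strand) encodes the cytosolic acetoacetyl-CoA thiolase at the start of the route. In the earlier run the 6 control mice lay at 29.9 to 42.1 CPM (median 36.8), and the 4 stimulated mice at 38.1, 41.5, 42.0 and 43.8 CPM. The later run gave 30.8 to 40.7 CPM (median 34.1) and 34.6 to 41.2 CPM (median 38.2). The groups overlapped in both runs, yet all 10 stimulated mice were above the control median of their run. The log2 fold change was 0.17 ± 0.06 (unadjusted p = 0.0119, adjusted p = 0.349, edgeR).

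Fdps (chr3:89093588-89101959, minus strand) encodes farnesyl pyrophosphate synthase, at the branch between sterols and other isoprenoids. Control mice of the earlier run had 6.37 to 7.28 CPM (median 7.03) and the stimulated mice 8.12, 7.29, 7.74 and 9.55 CPM, which did not overlap. The later run gave 3.67 to 4.96 CPM (median 4.38) and 4.15 to 5.52 CPM (median 4.54), which did. Its log2 fold change was 0.17 ± 0.08 (unadjusted p = 0.0435, adjusted p = 0.419, edgeR). A further gene model, Gm43738, shares 1124 of the 4208 exonic bases of Fdps on the same strand and had no count. Reads in that stretch cannot be assigned to one of the genes, so the absence of counts for Gm43738 does not show that Fdps lost none.

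The other 4 mevalonate genes had log2 fold changes of 0.12 (Mvk and Pmvk, the kinases that phosphorylate mevalonate and its phosphate), 0.09 (Hmgcs1) and −0.13 (Idi1, an isopentenyl pyrophosphate isomerase). Pmvk was above the control median of its run in 9 of 10 stimulated mice, with an unadjusted p of 0.0512 (edgeR). Leaving out 1 mouse moved Mvk to 0.07 (without stimulated replicate 4) and Idi1 to −0.08 (without control replicate 7) or −0.20 (without stimulated replicate 2).

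Of the 11 enzymes from squalene onwards, 7 had a higher fitted level in stimulated mice and 3, Fdft1, Nsdhl and Sqle, had an unadjusted p under 0.05 (again 52.6% and 6.05% of all genes tested), with a median log2 fold change of 0.05 over the group.

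Fdft1 (chr14:63145150-63179578, minus strand) encodes squalene synthase, which commits farnesyl pyrophosphate to sterols. In the earlier run it stood at 119.2 to 147.9 CPM (median 136.8) in control mice and at 140.5, 160.6, 144.9 and 152.6 CPM in stimulated mice. In the later run control mice spanned 84.4 to 104.2 CPM (median 95.5) and stimulated mice 105.5 to 118.8 CPM (median 108.7). The groups overlapped in the earlier run but not in the later one, and all 10 stimulated mice were above the control median of their run. The log2 fold change was 0.18 ± 0.05 (unadjusted p = 0.00169, adjusted p = 0.314, edgeR). Exons of Fdft1 share 774 of 4227 bases with Ctsb on the opposite strand, and the strand setting of the counting is not given in the sources used here. Ctsb had a log2 fold change of 0.07 ± 0.06.

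Nsdhl (chrX:72918557-72958514, plus strand) encodes a dehydrogenase that removes the methyl groups at carbon C4 of the sterol ring with its partners. Control mice of the earlier run lay at 33.0 to 41.2 CPM (median 36.8), and the stimulated mice at 35.2, 40.2, 40.8 and 45.3 CPM. The later run had 25.5 to 31.7 CPM (median 26.8) in control and 29.7 to 33.2 CPM (median 31.8) in stimulated mice. Both runs overlapped, with 9 of 10 stimulated mice above the control median. Its log2 fold change was 0.16 ± 0.06 (unadjusted p = 0.00882, adjusted p = 0.349, edgeR).

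Sqle (chr15:59315077-59331192, plus strand) encodes squalene epoxidase, a rate-limiting oxygen-dependent step. It had 93.6 to 121.5 CPM (median 106.5) in control mice of the earlier run and 114.3, 126.0, 98.5 and 113.5 CPM in the stimulated mice. Later mice had 124.6 to 144.1 CPM (median 132.2) and 131.8 to 164.3 CPM (median 146.7). The groups overlapped in each run. The log2 fold change was 0.12 ± 0.06 (unadjusted p = 0.0480, adjusted p = 0.429, edgeR).

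The remaining 8 enzymes of this stage, namely Lss, Cyp51, Tm7sf2, Msmo1, Hsd17b7, Ebp, Sc5d and Dhcr7, had log2 fold changes from −0.06 (Ebp, the sterol isomerase) to 0.08 (Dhcr7, which completes cholesterol from 7-dehydrocholesterol). None of these 8 had an unadjusted p under 0.05. Leaving out 1 mouse moved Ebp to −0.10 (without control replicate 7) or −0.03 (without control replicate 9), and Dhcr7 to 0.04 (without stimulated replicate 2). Tm7sf2 shares 532 exonic bases with Vps51 on the same strand, so reads in that stretch cannot be assigned to one of the genes.

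**Figure D3:**
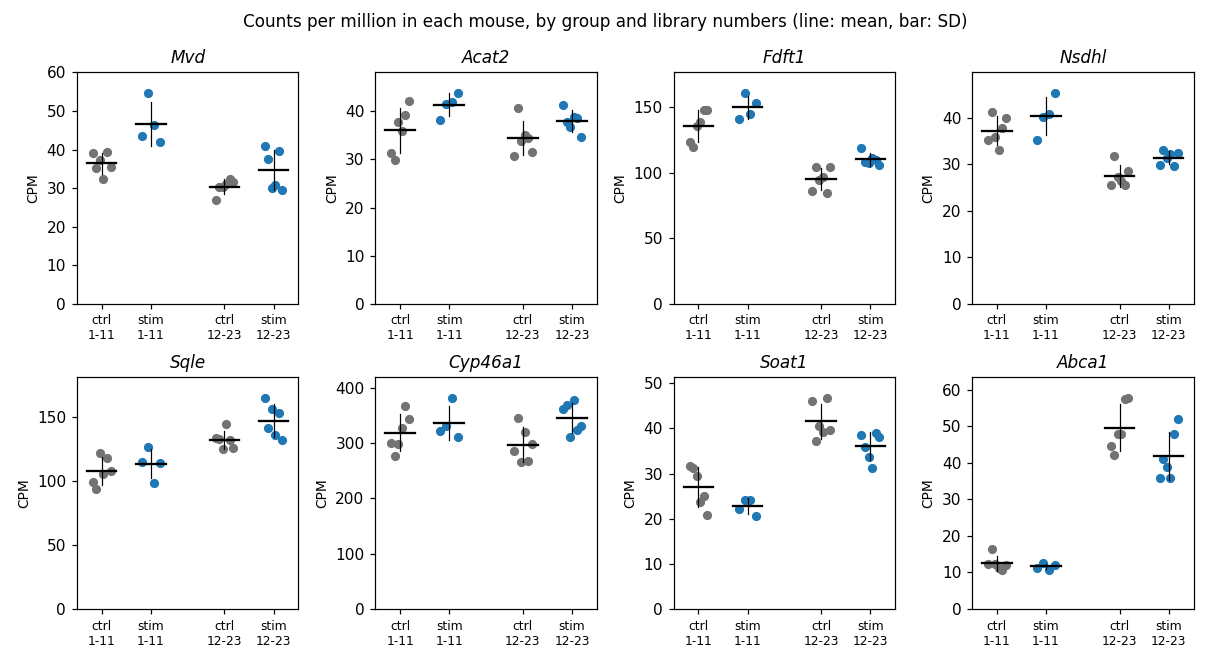
CPM in each mouse of 8 genes whose unadjusted p was under 0.05, by group (control grey, stimulated blue) and library numbers (1 to 11 with 6 and 4 mice, 12 to 23 with 6 and 6), with the mean as a line and the SD as a bar. Fdft1 of the later run (control up to 104.2, stimulated from 105.5) and Mvd of the earlier run (control up to 39.4, stimulated from 41.8) show groups apart, and Abca1 shows the largest step between runs.

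None of the 5 genes of SREBP control had an unadjusted p under 0.05 (11.5% of all genes tested), and 2 of the 5 had a higher fitted level (52.6%). Srebf1 (chr11:60199089-60222581, minus strand), which encodes the SREBP-1 proteins that act mainly on fatty acid genes, was at 39.2 to 57.9 CPM (median 49.5) in control mice of the earlier run and at 47.4, 45.8, 43.8 and 41.9 CPM in the stimulated mice. In the later run it was at 75.04 to 115.0 CPM (median 100.2) against 64.4 to 105.3 CPM (median 82.1). The groups overlapped, and 1 of 10 stimulated mice was above the control median of its run. Its log2 fold change was −0.17 ± 0.09 (unadjusted p = 0.0746, adjusted p = 0.479, edgeR).

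Scap (chr9:110333288-110384950, plus strand), the sterol-sensing escort of SREBP, was at 59.7 to 74.99 CPM (median 68.2) in earlier control mice and at 65.0, 67.4, 70.9 and 75.6 CPM in the stimulated mice. The later run gave 100.9 to 112.4 CPM (median 108.8) and 111.5 to 120.5 CPM (median 116.3). All 6 later stimulated mice, but 2 of the 4 earlier ones, were above the control median of their run. The log2 fold change was 0.08 ± 0.05 (unadjusted p = 0.0939, edgeR).

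Srebf2 (chr15:82147181-82205379, plus strand) was at 230.5 to 278.8 CPM (median 271.3) in earlier control mice and at 299.0, 265.9, 259.2 and 249.8 CPM in the stimulated mice. Later mice had 514.0 to 587.9 CPM (median 542.6) and 512.0 to 603.9 CPM (median 598.0). The groups overlapped, and the log2 fold change was 0.06 ± 0.05, with a 95% interval from −0.04 to 0.17, and 0.03 without control replicate 4. Insig1 and Insig2, which retain SCAP in the endoplasmic reticulum, had log2 fold changes of −0.05 ± 0.08 and −0.03 ± 0.06. Leaving out 1 mouse moved Insig1 to −0.12 (without stimulated replicate 2) or −0.01 (without stimulated replicate 3), and Insig2 to −0.05 (without control replicate 7) or −0.000302 (without stimulated replicate 4). The intervals of all 5 genes reached across 0.

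Of the 3 sterol carriers, Stard4 and Npc2 had a higher and Npc1 a lower fitted level, all with an unadjusted p above 0.05. Stard4, a soluble protein that moves cholesterol between membranes, had 12.9 to 15.3 CPM (median 14.7) in earlier control mice and 14.3, 15.8, 16.2 and 15.8 CPM in the stimulated mice. In the later run it had 15.1 to 23.0 CPM (median 17.9) and 17.7 to 27.5 CPM (median 20.1). The groups overlapped, with 8 of 10 stimulated mice above the control median and a log2 fold change of 0.16 ± 0.08 (unadjusted p = 0.0544, adjusted p = 0.444, edgeR).

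Npc1 and Npc2 hand cholesterol out of late endosomes and lysosomes. Npc1 was at 30.4 to 38.3 CPM (median 32.8) in earlier control mice and at 35.9, 35.7, 31.3 and 39.0 CPM in the stimulated mice. Later it was at 39.5 to 67.6 CPM (median 44.0) and 33.8 to 48.6 CPM (median 42.7). Its fitted difference was of opposite sign in the runs (0.09 ± 0.09 and −0.25 ± 0.13), and it went from −0.08 to 0.05 on the log2 scale without control replicates 9 and 11. Npc2 had 60.5 to 103.3 CPM (median 79.9) in earlier control mice and 94.3, 85.0, 90.1 and 82.0 CPM in the stimulated mice. The later run gave 52.2 to 75.8 CPM (median 62.4) and 40.5 to 80.5 CPM (median 60.6). The groups of Npc2 overlapped, and its log2 fold change was 0.05 ± 0.11. It was 0.0044 without stimulated replicate 9 and 0.10 without stimulated replicate 7.

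In the efflux and turnover group, 3 of 6 genes had a higher fitted level (52.6% of all genes tested). Cyp46a1 had an unadjusted p under 0.05 with a higher level (6.05% of all genes), and Soat1 and Abca1 with a lower one (5.45%).

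Soat1 (chr1:156424525-156474331, minus strand) encodes the enzyme that esterifies surplus cholesterol for storage. It was at 20.8 to 31.7 CPM (median 27.3) in earlier control mice and at 22.2, 24.2, 24.1 and 20.5 CPM in the stimulated mice. The later run had 37.1 to 46.7 CPM (median 40.2) in control and 31.2 to 39.0 CPM (median 37.1) in stimulated mice. The groups overlapped in both runs, but 0 of 10 stimulated mice were above the control median of their run. Its log2 fold change was −0.22 ± 0.07 (unadjusted p = 0.00502, adjusted p = 0.329, edgeR), and it was −0.23 ± 0.12 and −0.24 ± 0.09 in the runs.

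Cyp46a1 (chr12:108334381-108362234, plus strand) stood at 276.9 to 368.0 CPM (median 314.0) in earlier control mice and at 321.2, 331.0, 381.4 and 311.2 CPM in the stimulated mice. Later mice had 266.6 to 345.7 CPM (median 291.9) and 311.0 to 377.7 CPM (median 346.6). With overlapping groups, 9 of 10 stimulated mice were above the control median. The log2 fold change was 0.15 ± 0.06 (unadjusted p = 0.0223, adjusted p = 0.371, edgeR).

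Abca1 (chr4:53030787-53159895, minus strand), an LXR target, encodes the transporter that passes cholesterol to lipid-poor apolipoproteins. It was at 10.7 to 16.5 CPM (median 12.2) in earlier control mice and at 11.2, 12.5, 10.7 and 12.1 CPM in the stimulated mice. Later mice had 42.2 to 57.6 CPM (median 47.9) and 35.9 to 51.9 CPM (median 39.9). The runs were far apart and the groups overlapped within each. Its log2 fold change was −0.18 ± 0.08 (unadjusted p = 0.0339, adjusted p = 0.402, edgeR). The other 3 genes, Abcg1 (a further exporter, 0.03) and the LXR genes Nr1h2 (0.01) and Nr1h3 (−0.14), had intervals across 0. Leaving out 1 mouse moved Abcg1 between 0.00014 (without control replicate 1) and 0.05 (without control replicate 9), and Nr1h3 to −0.07 without stimulated replicate 4.

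The fitted difference had the same sign in both runs for 22 of the 32 genes, against 55.3% of all genes tested. It was above 0 in both for 15 (28.3% of all genes) and below 0 in both for 7 (27.0%). Of the 18 synthesis enzymes, 11 were higher in both runs. Tested within the earlier run, Mvd had an unadjusted p under 0.05 on the higher side, where 2.21% of all genes did, and none of the 32 on the lower side (3.34%). Tested within the later run, Fdft1 and Cyp46a1 on the higher side (4.06% of all genes) and Soat1 and Abca1 on the lower side (8.3%) did. The test of the difference between the runs called 0 of the 17524 genes at an adjusted p under 0.05 (0%, edgeR, 1403 at an unadjusted p under 0.05, 8.01%). Of the 32, Insig2 alone had an unadjusted p under 0.05 in that test (0.0115), with log2 fold changes of −0.17 ± 0.08 and 0.06 ± 0.07.

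**Figure D4:**
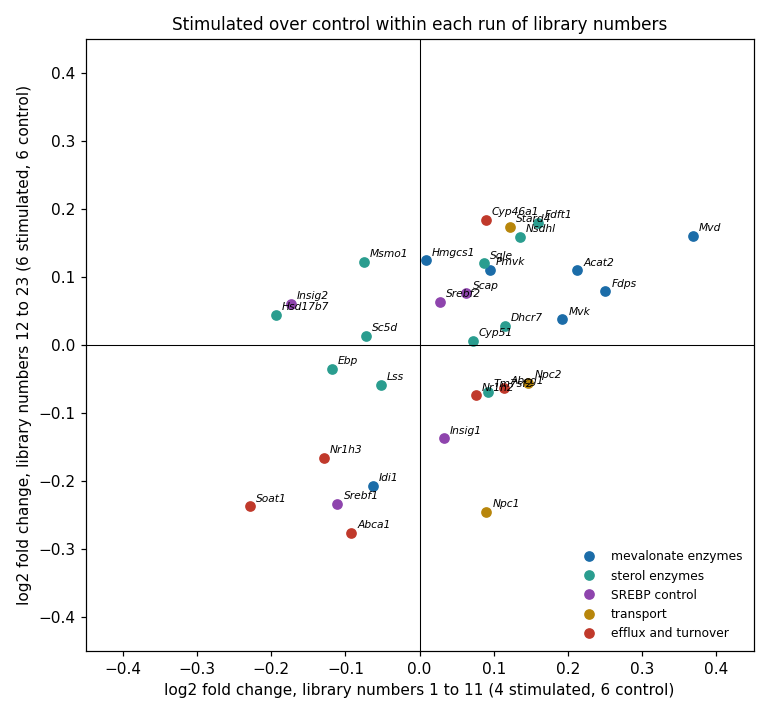
Log2 fold change of stimulated over control mice in the earlier run (horizontal axis, 6 control and 4 stimulated mice) and the later run (vertical axis, 6 and 6) for the 32 genes, coloured by role. The upper right part holds 15 genes, with Mvd at 0.37 and 0.16, and the lower left holds 7, with Soat1 at −0.23 and −0.24.

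The difference between the runs was larger than that between the groups for most of these genes. At an adjusted p under 0.05, 15 of the 32 were higher in the later run (33.7% of all genes) and 10 were lower (34.3%, edgeR). On the log2 scale Abca1 was higher by 1.92 ± 0.09 (SE), Srebf2 by 1.07 ± 0.05 and Srebf1 by 0.95 ± 0.09. Insig1 (0.72 ± 0.08), Scap (0.71 ± 0.05), Soat1 (0.64 ± 0.07) and Hmgcs1 (0.63 ± 0.06) followed. Pmvk was lower with −0.74 ± 0.06, Fdps with −0.73 ± 0.08, Ebp with −0.59 ± 0.07 and Fdft1 with −0.48 ± 0.05. Of the synthesis enzymes 7 were higher and 8 lower, so the enzymes of one route stood on both sides, and the mitochondrial share of counts differed between the runs as well. Its part in these differences was not tested.

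**Figure D5:**
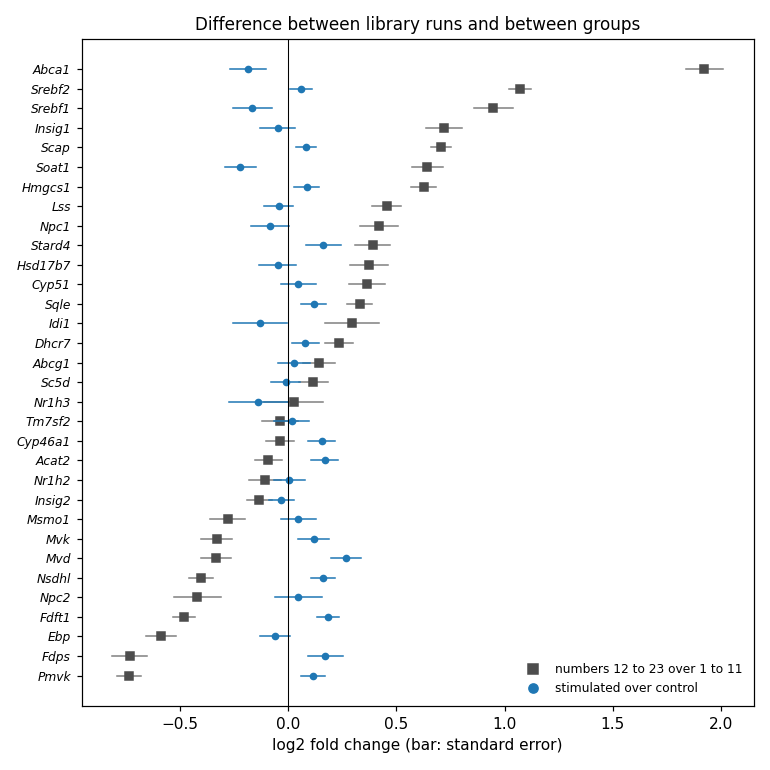
Log2 fold change with its standard error for the later over the earlier run (grey squares, 12 and 10 mice) and for stimulated over control mice (blue circles), both from the same edgeR fit, for the 32 genes ordered by the former. The squares spread from −0.74 (Pmvk) to 1.92 (Abca1) and the circles from −0.22 (Soat1) to 0.27 (Mvd).

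Other genes of sterol and lipid supply were looked at by list. Of 25 genes of uptake and sterol sensing, 23 were tested and 13 had a higher fitted level. At an unadjusted p under 0.05, 2 were higher (6.05% of all genes tested) and 2 lower (5.45%). The 2 lower ones were Abca7, a lipid transporter (−0.24 ± 0.10), and Ch25h, cholesterol 25-hydroxylase (−0.59 ± 0.24, from 0.961 to 0.616 CPM). Of 18 SREBP targets in fatty acid synthesis, 6 had a higher fitted level and the median log2 fold change was −0.08. The only one with an unadjusted p under 0.05 was Aacs, acetoacetyl-CoA synthetase (0.22 ± 0.09). Its product is also that of the Acat2 enzyme, at the start of the sterol route, so Aacs does not stand for fatty acid synthesis alone. Of 9 genes of the isoprenoid branch, 5 had a higher fitted level, and Ggps1, geranylgeranyl pyrophosphate synthase, was lower at an unadjusted p under 0.05 (−0.11 ± 0.05). With all mice, 0 genes of these 3 lists had an adjusted p under 0.05 (edgeR). Without control replicates 9 and 11, and by the DESeq2 Wald test with run, 1 gene of the uptake list did.

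Markers of cell types were read beside these genes. All 12 oligodendrocyte markers had a lower fitted level in stimulated mice, each at an unadjusted p under 0.05 and none at an adjusted one, with a median log2 fold change of −0.69. Their summed level was 3262 to 20020 CPM in control and 2399 to 5878 CPM in stimulated mice, and the median log2 fold change was −0.01 within the earlier run and −1.31 within the later one, where 12 of 12 had an unadjusted p under 0.05. Without control replicates 9 and 11 the median log2 fold change of the 12 was −0.11, and 2 of the 12 had an unadjusted p under 0.05. With the replicate block, which also leaves out control replicates 11 and 12, 4 of the 12 did, all 12 were lower and the median was −0.41. Of 10 astrocyte markers 0 had a higher fitted level, of 7 neuronal markers 6 did (Slc17a7 at 0.16 ± 0.06), and of 7 microglial markers 5. Of 5 endothelial markers 0 and of 5 markers of oligodendrocyte progenitors 1 had a higher fitted level. Of the choroid plexus markers, 3 of 4 were tested and Ttr had a log2 fold change of −1.88 ± 0.53. Summed levels of the other lists overlapped between control and stimulated mice. They were 8661 to 14220 and 8813 to 14940 CPM for neuronal, 3944 to 7972 and 3776 to 7119 CPM for astrocyte, and 555.9 to 917.5 and 584.3 to 912.0 CPM for microglial markers. Progenitor markers summed to 174.5 to 458.3 and 197.2 to 347.7 CPM, endothelial markers to 205.4 to 356.2 and 195.4 to 362.7 CPM, and choroid plexus markers to 7.11 to 133.9 and 5.54 to 17.1 CPM.

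Without control replicates 9 and 11, the log2 fold changes were 0.29 for Mvd, 0.17 for Acat2, 0.17 for Fdft1, 0.15 for Nsdhl, −0.20 for Soat1, 0.12 for Cyp46a1, −0.15 for Abca1, 0.17 for Fdps and 0.11 for Sqle. Of these, Cyp46a1, Abca1, Fdps and Sqle then had an unadjusted p above 0.05 (0.0884, 0.0990, 0.0704 and 0.0899, edgeR), and Pmvk had one under it (0.0421). In that fit 5 of the 32 genes were higher (4.75% of all genes) and 1 lower (3.41%) at an unadjusted p under 0.05, and 0 passed adjustment, where 1 of all genes did (0.00571%, edgeR). The part of the other cell types in the differences was not tested.

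Across mice of one run, with group means removed, the level of each of the 32 genes was set against the mean log2 level of the 12 oligodendrocyte markers (64 relations, permutation tests with Benjamini-Hochberg adjustment). By Pearson's r, 3 relations passed adjustment, and by Spearman's rho none did. Npc1 followed the markers in the later run (r = 0.89, permutation p = 0.0001, adjusted p = 0.0064, n = 12). Its rho was 0.81 (permutation p = 0.00205), and r was 0.73 without the 2 mice farthest from the median score. In the earlier run Npc1 had r = 0.46 (permutation p = 0.18). Sc5d in the earlier run had r = 0.86 (permutation p = 0.00117, adjusted p = 0.0305, rho = 0.84, permutation p = 0.00392, n = 10) and 0.74 without 2 mice, but r = −0.12 in the later run. Cyp46a1 had r = −0.87 in the earlier run (permutation p = 0.00143, adjusted p = 0.0305, rho = −0.89, permutation p = 0.00095, n = 10) and −0.89 without 2 mice, and r = −0.55 in the later run (permutation p = 0.0618). For Mvd r was −0.18 and 0.16 in the runs, with permutation p values of 0.624 and 0.615. Mitochondrial genes took 3.04% to 4.81% of counts in control replicates 1 to 3 of the earlier run. Their share was 1.63% to 1.99% in control replicates 4 to 6. The 12 markers summed to 5594 to 6370 CPM in the former and 3262 to 3777 CPM in the latter. Stimulated replicates 1 to 4 had shares of 2.80%, 2.36%, 1.79% and 2.07%, and sums of 5878, 4189, 3439 and 4407 CPM. The part of this share in the relations was not tested.

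Insig1, an SREBP target as well as a brake, was set against the 18 synthesis enzymes in the same way (36 relations). By Pearson's r none passed adjustment, the smallest adjusted permutation p being 0.102, and none did by Spearman's rho. Before adjustment 7 relations had a permutation p under 0.05 by r, all positive, and these had one by rho too. By rho alone, Pmvk (rho = 0.60, permutation p = 0.0422), Dhcr7 (rho = 0.62, permutation p = 0.0370) and, with a negative sign, Hsd17b7 (rho = −0.62, permutation p = 0.0375) did so in the later run. Those 7 were, in the earlier run, with Tm7sf2 (r = 0.84, rho = 0.78), Msmo1 (r = 0.77, rho = 0.72), Sc5d (r = 0.74, rho = 0.65) and Cyp51 (r = 0.71, rho = 0.75), and in the later run with Cyp51 (r = 0.74, rho = 0.76), Msmo1 (r = 0.70, rho = 0.63) and Sc5d (r = 0.63, rho = 0.69). Without the 2 mice farthest from the median of Insig1, r in the earlier run was 0.81 to 0.91 for these genes. For the later run it was 0.54 for Cyp51, 0.32 for Msmo1 and 0.29 for Sc5d, each lower than with all mice. Values without the 2 mice were not tested. Over all 18 enzymes the median r was 0.39 in the earlier and 0.37 in the later run, and 0.0049 and 0.22 without those mice. Earlier control replicates 1 to 3 had 43.4 to 46.2 CPM of Insig1, and replicates 4 to 6 had 34.0 to 38.8 CPM. Stimulated replicates 1 to 4 had 43.3, 53.8, 31.45 and 35.5 CPM. The mitochondrial share of counts of these mice, given above, divided them in the same way, and its part in these relations was not tested.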

How the data were processed

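RNA from bulk ACC of 22 mice was amplified with the SMARTSeq v4 kit. Per the labels' processing notes and the study's methods, the authors used cutadapt 1.10 for trimming, STAR 2.5.3a for alignment to mm10 and HTSeq 0.6.1p1 with Ensembl 95 for counting reads that aligned uniquely. The authors deposited whole-number counts and the same counts divided by DESeq2 1.22.1 size factors, a signal that was not tested here. Log2 fold changes and p-values of the authors' own comparison were also deposited and not used.

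Counts were fitted in edgeR 4.0.16 (R 4.3.3; TMM, glmQLFit and glmQLFTest, run of library numbers plus group, Benjamini-Hochberg over the genes that reached 10 counts in 10 mice or more). The study's model held batch and RNA integrity. The labels give neither, so the run is a stand-in. Alternatives were group alone, a replicate block (replicates 1 to 10), DESeq2 size factors, limma 3.58.1 voom with quality weights, the Wald test of DESeq2 1.42.0, other count minimums and leaving out mice. FPKM used the union of exons in GENCODE M21 (GRCm38), where 37772 identifiers were found, and coordinates are from that annotation. log2 CPM for correlations used a prior count of 2. Replicates are separate animals, and no 2 libraries agreed within counting noise. The edgeR step was tested on simulated data.

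The genes and all lists were chosen with earlier results of these data known. Full values are given for genes with an unadjusted p under 0.05 with or without the run, and for the 3 smallest p of each role. Some genes of the uptake list are not reported here.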

Additional observations from a re-analysis of the deposited data

Results flagged for a closer look

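Nr1h2, which encodes the LXR beta receptor, had 1 stimulated mouse far below the other 9. Stimulated replicate 7 was the lowest at 53.3 CPM, the nearest mouse lay at 67.1 CPM, and on the log2 CPM scale the gap between them took 0.505 of the range of the group, above Dixon's 95% critical value of 0.466 for 10 mice. On the CPM scale the gap took 0.448 of the range, which is under that value. It was the only such case on the log2 scale among the 32 genes, where chance gives about 1 in 20, and the control group, with 12 mice, was not examined in this way.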

How the results depend on the processing

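No gene of the 32 passed an adjusted p under 0.05 in any fit tried, the leave-one-out fits included. Of the single-gene log2 fold changes outside the leave-one-out fits, 247 kept their direction and 9 reversed. Mvd and Acat2 had an unadjusted p under 0.05 in every alternative and leave-one-out fit, Fdft1, Nsdhl and Soat1 in all but 1, whereas Sqle had one in 6 of 22 leave-one-out fits and 2 of the 8 other alternatives, Fdps in 13 and 2, Abca1 in 14 and 5, and Cyp46a1 in 21 and 6.

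With group alone, 2 genes were higher and 0 lower at an unadjusted p under 0.05, 2 of them synthesis enzymes, and the median of the 14 other genes turned to 0.0013. It was 0.0039 with limma voom and 0.048 without control replicates 9 and 11, where 1 gene was lower. Group alone also turned Lss to 0.0042, Hsd17b7 to 0.0059, Sc5d to 0.0023, Insig1 to 0.0061 and Nr1h2 to −0.0036. Without control replicates 9 and 11, Ebp was at 0.0027 and Npc1 at 0.047, and with at least 10 counts in every mouse the Nr1h2 log2 fold change was −0.0065. The cause was not tested.

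Same-numbered mice are different animals, and their deviations correlated at a mean of 0.31 (−0.37 to 0.63, 8 of 10 pairs over 0.1), or 0.051 within runs. The replicate block covers replicates 1 to 10, so control replicates 11 and 12 were left out as well, and the parts of these changes were not told apart. In that fit 6 genes were higher (5.8% of all genes) and 1 lower (5.5%) at an unadjusted p under 0.05, Abca1 (0.124), Fdps (0.159) and Sqle (0.178) were above it, and Tm7sf2 turned to −0.050 (edgeR).

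Leaving out each mouse gave 5 to 9 genes higher, 1 to 3 lower, 4 to 7 synthesis enzymes higher, and a median of the 14 other genes from −0.033 to 0.0053. Tm7sf2 ran from −0.018 to 0.056, Sc5d from −0.034 to 0.014 and Nr1h2 from −0.028 to 0.040. Among other genes near 0, the range was −0.071 to −0.020 for Lss, 0.0021 to 0.078 for Cyp51, 0.013 to 0.077 for Msmo1, −0.10 to −0.00045 for Hsd17b7 and −0.11 to −0.017 for Npc1. The lower count went to 1 without control replicate 2, 11 or 12 or stimulated replicate 3, 5, 6, 7 or 8. Every gene had at least 54 counts in every mouse. The lowest were Idi1, with 54 to 109 counts, and Nr1h3, with 88 to 239, and the part of depth in their spread was not tested.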
